A study of Mus musculus with 19 samples.

Results

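Ly6a, Cd44, Msln, Cd109 and Ehd2 are 5 of the 12778 genes in a matrix of mouse stem cell expression, followed here across 19 libraries. They were chosen by their values: each was far higher in iPSC that lack both the miR-290 and the miR-302 cluster than in WT iPSC, and higher to a smaller degree in iPSC that lack miR-290 alone. Those differences are therefore given as descriptions, without a test. Differences between miR-302 KO and WT iPSC are descriptions too, since the choice used the WT libraries. Tests of the 5 genes are given for comparisons whose groups the choice did not use, namely that of the miR-302 KO iPSC with the miR-302 KO ESC and that of the miR-290 KO ESC with the miR-302 KO ESC.

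QuantSeq, which reads the 3′ end of polyadenylated RNA, was run on 6 groups, all grown in LIF with serum. The induced pluripotent stem cells (iPSC) came from mouse embryonic fibroblasts reprogrammed with Oct4, Sox2 and Klf4, and were WT (3 libraries), miR-290 KO, miR-302 KO or double KO (each 2 colonies with 2 libraries per colony), all collected over 18 passages after reprogramming. The embryonic stem cells (ESC) were miR-290 KO or miR-302 KO (2 libraries each), and no WT ESC library was analysed. The labels name no line or colony for the ESC. The 2 libraries of an ESC group may thus share 1 line, and p-values would then measure the spread within it. The strain was not given in the sources used here. KO colonies were derived independently per the series' design text, which excepts the WT iPSC, so the WT libraries may share 1 derivation and p-values then measure the spread within it. Libraries held 6435117 to 24971971 reads (median 17457622), and levels are in CPM, the usual depth-scaled read count.

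MicroRNAs pair through a short seed, bases 2 to 8, with matching letters in the 3′ UTR of a messenger RNA and lower its level or its translation. Both clusters are expressed in mouse pluripotent cells, and most of their members carry nearly the same seed. The matrix has no row for either cluster, so their levels in these libraries are not known. Of the 5 genes, Ly6a encodes Sca-1, a small protein held on the outer membrane by a GPI lipid anchor and used to sort blood stem cells and fibroblast-like cells. Cd44 encodes the transmembrane receptor for the matrix sugar hyaluronan, and it is used as a fibroblast-side surface marker in reprogramming. Msln encodes mesothelin, a GPI-anchored protein of the cells that line body cavities. Cd109 encodes a GPI-anchored member of the alpha-2-macroglobulin family that binds TGF-beta receptors. Ehd2 encodes a cytoplasmic ATPase that sits at the neck of caveolae, small pits of the plasma membrane. It is thus a protein of the membrane's inner face and not a surface protein in the strict sense.

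The mature microRNAs of both clusters that share the seed core and were found in the sequence table are shown because they are what the double KO cells lack. They come from RefSeq on GRCm38, 5′ to 3′, with bases 2 to 8 in capitals.
mmu-miR-291a-3p: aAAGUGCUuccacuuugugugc
mmu-miR-294-3p: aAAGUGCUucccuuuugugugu
mmu-miR-295-3p: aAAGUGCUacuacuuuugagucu
mmu-miR-302b-3p: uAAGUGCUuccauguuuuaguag
mmu-miR-302d-3p: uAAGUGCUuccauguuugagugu
mmu-miR-290a-3p: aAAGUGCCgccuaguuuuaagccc
mmu-miR-291b-3p: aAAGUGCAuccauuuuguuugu
The first 5 have the seed AAGUGCU, whose reverse complement in a target is AGCACTT. The seed of miR-290a-3p differs from it at its last base, and so does that of miR-291b-3p. The miR-290 cluster lies on chromosome 7 and the miR-302 cluster on chromosome 3.

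The 3′ UTRs of the 5 genes fell into 2 kinds. The longest annotated 3′ UTR of each gene (GENCODE M21, GRCm38) was searched on the transcript strand for GCACTT (6 letters), AGCACTT (7 letters) and AGCACTTA (8 letters), each of which contains the one before. Ly6a (chr15:74994877-74998031, minus strand, 385 bases of 3′ UTR), Cd44 (chr2:102811141-102901665, minus strand, 2992 bases) and Msln (chr17:25748613-25754378, minus strand, 129 bases) held none of them. Cd109 (chr9:78615546-78716253, plus strand, 1195 bases) held 1, a match of 8 letters. Ehd2 (chr7:15946958-15967567, minus strand, 3283 bases) held 4, of which 3 had 7 or 8 letters. The remaining one of 6 letters lies in GGCACTT, the reverse complement of the seed of miR-290a-3p. The 5 matches are printed with the matching letters in capitals, each in the 3′ UTR of its gene and on the strand of that gene.
Cd109, chr9:78716107-78716136: tcttttttgtaAGCACTTAaagaaatattc
Ehd2, chr7:15950042-15950071: cattcagtgaaAGCACTTAtagaggaccag
Ehd2, chr7:15949740-15949769: ggtatgtacccAGCACTTcctgcatactag
Ehd2, chr7:15949668-15949697: gatatttattgAGCACTTActgtatgctgg
Ehd2, chr7:15947991-15948020: gatagttggctgGCACTTggatgctaggca
Among all 21010 annotated 3′ UTRs, 28.5% held the 6 letters, 14.7% the 7 letters and 2.96% the 8 letters. Length matters to such shares: among 3′ UTRs within 25% of the length of Cd44's, 30.2% held the 7 letters, against 3.56% at the length of Ly6a's and 1.11% at that of Msln's. At the length of Cd109's 3′ UTR 2.14% held the 8 letters, and at the length of Ehd2's 1.03% held the 7 letters at least 3 times. A match is a run of letters, and its absence says only that these letters are not in this annotated stretch.

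**Figure D1:**
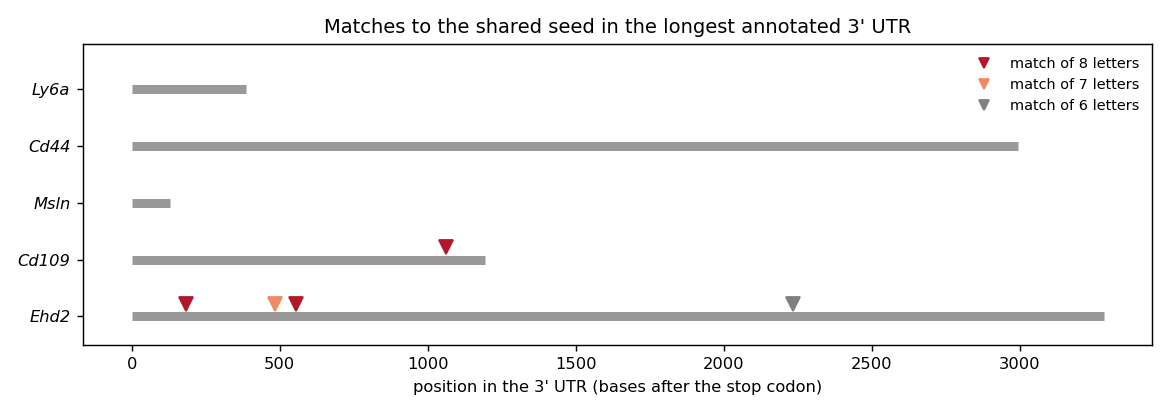
The 3′ UTR of each gene is drawn to scale from the stop codon (x axis, bases), with triangles at matches to the shared seed. Ehd2 has 4 matches and Cd109 has 1 near its end, while the bars of Ly6a, Cd44 and Msln carry none.

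Among the 11839 genes whose symbol also had an annotated 3′ UTR, the median log2 difference between double KO and WT iPSC was 0.40 for the 2071 with the 7 letters, 0.60 for the 427 with the 8 letters and 0.05 for the 7907 without the 6 letters. For miR-290 KO against WT iPSC these medians were 0.23, 0.29 and 0.10, and for miR-302 KO against WT iPSC they were -0.08, -0.07 and -0.12. The sets of genes were not matched for 3′ UTR length, and the part of the seed in these medians was not tested.

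The reads of some libraries go against their labels. The 2 libraries of 1 colony should carry the same chromosomes. In the miR-302 KO iPSC the reads of the Y-linked genes Ddx3y, Eif2s3y and Uty differed within each colony. Together they came to 1 in the library labelled colony 1 library 1 and 149 in colony 1 library 2. They came to 385 in colony 2 library 1 and 8 in colony 2 library 2. Of the 149 reads, 144 were Ddx3y, 3 Eif2s3y and 2 Uty, against 238, 69 and 78 in colony 2 library 1. For colony 1 the difference thus rests on Ddx3y. Across 7877 genes with a mean over 10 CPM in the 15 libraries without the double KO, deviations from the gene's mean correlated at r = -0.18 between the libraries of colony 1 and at r = -0.19 between those of colony 2. The libraries labelled colony 1 library 1 and colony 2 library 2 were most like the miR-302 KO ESC library 2 (r = 0.53) and library 1 (r = 0.59), which had 4 and 3 Y-linked reads. In the miR-290 KO iPSC all 4 libraries had 555 to 1699 Y-linked reads and the libraries of a colony correlated at r = 0.52 and r = 0.48. These correlations are over genes, which are not replicates, and are descriptions. The Y-linked genes and Xist were chosen after their values were seen.

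The double KO also differed from WT iPSC in its sex chromosomes. All 4 double KO libraries had 1 to 5 Y-linked reads and 9024 to 11513 reads of Xist, the RNA that silences an X chromosome in female cells. The 3 WT libraries had 192 to 259 Y-linked reads and 0 of Xist. Genotype and this difference cannot be told apart in that comparison. The same limit holds between the ESC, since the miR-290 KO ESC libraries had 457 and 446 Y-linked reads and the miR-302 KO ESC libraries 3 and 4. All 5 genes lie on autosomes.

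Ly6a was high in every double KO library and at 7 reads or fewer in every WT library. In the double KO it had 1373 and 1554 CPM in colony 1 and 1241 and 1161 CPM in colony 2, a mean of 1332 ± 186 (SD, n = 2 colonies). In WT iPSC it had 0.108, 0.105 and 0.481 CPM, which are 2, 2 and 7 reads. The groups did not overlap, and the log2 difference was 11.94 (SE 1.55), rank 2 of all 12778 genes. In the miR-290 KO iPSC it had 15.5 and 5.12 CPM in colony 1 and 10.3 and 2.80 CPM in colony 2, so each of these libraries lay above each WT library.

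In both groups that lack miR-302 alone, Ly6a was high in 1 library and near 0 in the rest. The miR-302 KO ESC library 1 had 304 reads (18.6 CPM) and library 2 had 0. Among the miR-302 KO iPSC, colony 2 library 2 had 313 reads (15.3 CPM), and the other 3 had 1, 1 and 5 reads. These 2 libraries were each most like the other above (r = 0.59), and the gap between each and its partner ranked 9 (ESC) and 21 (iPSC) of 12778 genes. Gm364, a gene of unknown role named here after its values were seen, had 0 to 55 reads in the other 17 libraries. In the double KO, where Ly6a had 19312 to 21805 reads, Gm364 had 0 to 7. Like Ly6a it was high, at 755 and 1267 reads, in these 2 libraries. Ly6c1, a relative of Ly6a close to it on the chromosome, had 2 and 3 reads in them, and Cd44 had 5 and 3.

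Of the matrix genes on either side of Ly6a, one rose and one fell in the double KO. Ly6c1, which encodes a GPI-anchored protein of blood and endothelial cells 46.0 kb away, rose from 0.105 ± 0.182 CPM in WT iPSC (n = 3) to 206 ± 85.4 in the double KO (n = 2 colonies), a log2 difference of 9.87 (SE 0.87, limma adjusted p = 1.98e-06). Ly6e, a GPI-anchored protein 35.0 kb away on the other side, fell from 56.5 ± 14.6 to 0.856 ± 0.574 CPM (log2 difference -6.04, SE 0.40, adjusted p = 1.46e-07). Ly6k, which is known for its role in sperm, fell from 1.69 to 0.0178 CPM (log2 difference -3.33, SE 0.70). Within 1 Mb of Ly6a, 6 of 19 genes were higher in the double KO and 4 lower, against 27.4% and 21.5% of all genes. The median log2 difference of these 19 was 0.11, against 0.16 over all genes. For Ly6a, 8.13% of the 50-base stretches in the last 500 bases of its transcripts also occur in transcripts of 4 other genes, Ly6c1, Ly6c2, Ly6i and I830127L07Rik, so a part of the reads of Ly6a and Ly6c1 is uncertain. For Msln that share was 3.71%, with 110 other genes, and for Cd44, Cd109 and Ehd2 it was 0.

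Of the Ly6 family, small proteins with a three-finger fold, 10 genes besides Ly6a were in the matrix. In the double KO 3 were higher, 3 lower and 4 not called, where 49.0% of all genes were called. Beside those named above, Cd59a, an inhibitor of complement, rose from 32.1 ± 7.96 to 251 ± 2.56 CPM (log2 difference 2.98, SE 0.39), and Bambi, a decoy receptor of TGF-beta signals, rose by 1.80 (SE 0.52, adjusted p = 0.012). Ly6g6e fell by 2.68 (SE 0.94, adjusted p = 0.031). The median of the 10 genes was 0.09. Scaling the libraries to a common median moved the median of all genes by -0.15 in this comparison and by -0.14 in that of the miR-290 KO with WT iPSC, so list medians are read against the 0.16 of all genes. None was called in the miR-290 KO iPSC, where 1.57% of all genes were called and Ly6c1 stood at 1.75 ± 0.803 CPM (log2 difference 2.65, SE 0.87, adjusted p = 0.15).

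Cd44 set the 2 double KO colonies apart. Colony 1 had 229 and 216 CPM and colony 2 had 775 CPM in both of its libraries, for a mean of 499 ± 390 (SD, n = 2 colonies). In WT iPSC it had 0, 0 and 5 reads, the last being 0.344 CPM. A library with 0 reads allows up to 3, which is 0.162 and 0.158 CPM for these WT libraries. The miR-302 KO iPSC had 17, 0, 17 and 3 reads. The log2 difference between double KO and WT was 10.93 (SE 0.77), rank 3 of all genes. Between the double KO colonies the log2 difference was 1.80, while the libraries within a colony differed by 0.09 at most. A gap that large between these colonies was found for 5.17% of all genes, and 13.5% were past 1 on the log2 scale. With 1 value per colony this has no test. In the miR-290 KO iPSC Cd44 had 2.03 and 4.12 CPM in colony 1 and 6.22 and 4.04 in colony 2, all above the WT libraries.

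Among 24 other genes of hyaluronan and CD44, 13 were higher in the double KO, 6 lower and 5 not called, where 27.4% of all genes were higher and 21.5% lower. Their median log2 difference was 0.53, against 0.16 over all genes. Has2, which makes hyaluronan, rose from 0.495 ± 0.530 CPM in WT iPSC to 10.4 ± 5.84 (log2 difference 4.39, SE 0.95, limma adjusted p = 0.0023). Cemip, which binds it and promotes its breakdown outside the cell, rose from 1.05 ± 1.01 to 144 ± 86.3 CPM (log2 difference 7.10, SE 0.87). Hyal1, a lysosomal hyaluronidase, fell from 3.11 ± 2.91 to 0.0717 ± 0.101 CPM (log2 difference -3.76, SE 0.87), a call that voom on the recovered reads did not make, and Hyal2 was not called. Spp1, the ligand osteopontin, fell from 213 ± 34.5 to 12.3 ± 16.9 CPM (log2 difference -5.97, SE 1.06). Among proteases that act on CD44, Mmp14 rose by 2.32 (SE 0.36), Adam10 by 1.62 and Adam17 by 1.03 on the log2 scale, and Mmp9 fell by 3.28. Esrp1, a splicing factor that favours the longer forms of CD44 in epithelial cells, fell by 2.31. Reads at the 3′ end do not tell those forms apart. None of these 24 genes was called in the miR-290 KO iPSC, where 1.57% of all genes were called.

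Msln had 137 and 212 CPM in colony 1 of the double KO and 226 and 285 in colony 2 (mean 215 ± 57.5). It had 22.4, 15.3, 15.8 and 6.68 CPM in the miR-290 KO iPSC libraries, and 0.108, 0.685 and 1.79 in WT iPSC. No library of these 3 groups overlapped with another group. The log2 difference was 8.14 (SE 0.81, rank 21) for double KO and 4.25 (SE 0.81, rank 5) for miR-290 KO against WT. In the miR-302 KO iPSC the 4 libraries spread from 0.270 to 7.50 CPM and reached into the ranges of both WT and miR-290 KO.

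Of 11 other genes of mesothelin and mesothelial cells, 1 was higher in the double KO, 5 were lower and 5 were not called. Among all genes 27.4% were higher and 21.5% lower. The list had a median log2 difference of -2.25, against 0.16 over all genes. Of 4 keratins of simple epithelia, 3 fell: Krt18 by 6.91 (SE 0.71, from 66.2 ± 75.2 to 0.261 ± 0.124 CPM), Krt8 by 6.20 (SE 0.67) and Krt7 by 5.01 (SE 0.83) on the log2 scale. The other, Krt19, was not called (log2 difference -0.05, SE 1.03). Calb2, which encodes the mesothelial marker calretinin, fell from 8.44 ± 1.43 CPM to 0 reads in all 4 double KO libraries. Efemp1, a matrix protein, was the 1 gene that rose (log2 difference 4.05, SE 1.15, adjusted p = 0.011), with 75.7 ± 84.6 CPM in the double KO. Wt1, Pdpn, Aldh1a2 and Mslnl were not called either. In the ESC, Krt7 was at 20.5 ± 5.44 CPM without miR-290 and 0.244 ± 0.345 without miR-302 (log2 difference 6.09, SE 0.91, adjusted p = 0.015), and Krt8 at 258 ± 80.9 and 18.6 ± 11.2 (log2 difference 3.89, SE 0.74, adjusted p = 0.040). Of 27 alternatives, 6 did not call Krt7 in the ESC and 17 did not call Krt8. Msln overlapped between these ESC, with 3.02 and 1.53 CPM against 4.09 and 1.67.

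Cd109 had 359, 340, 355 and 355 CPM in the double KO libraries (mean 352 ± 3.52 over 2 colonies), 15.9, 11.6, 10.3 and 19.7 in the miR-290 KO iPSC, and 2.32, 1.84 and 2.75 in WT iPSC. These 3 groups did not overlap, and the colonies of the double KO differed by 0.02 on the log2 scale. The log2 difference from WT was 7.19 (SE 0.43, rank 38) in the double KO and 2.54 (SE 0.43, rank 100) in the miR-290 KO. In the miR-302 KO iPSC it had 0.457, 0.719, 2.24 and 1.18 CPM, with 3 of the 4 libraries below every WT library.

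Among 14 other genes of the alpha-2-macroglobulin family and CD109's partners, 7 were higher in the double KO, 2 lower and 5 not called. The shares over all genes were 27.4% higher and 21.5% lower. Their median log2 difference was 0.88, against 0.16 over all genes. Tgfbr2, the type II TGF-beta receptor, went from 0.351 ± 0.608 to 20.0 ± 0.0160 CPM (log2 difference 6.12, SE 1.07, limma adjusted p = 0.00050), while Tgfbr1 and Tgfbr3 were not called. Egfr, the EGF receptor, went from 0.654 ± 0.494 to 80.1 ± 3.89 CPM (log2 difference 6.84, SE 0.56), and Eng, a co-receptor for TGF-beta, rose by 3.47 (SE 0.42). Lrp1, which clears alpha-2-macroglobulin, rose by 3.46 (SE 0.28). Of the soluble members, A2m fell from 4.69 ± 2.73 to 0.0178 ± 0.0252 CPM (log2 difference -4.81, SE 0.91), and Pzp from 3.58 ± 1.09 CPM to 0 reads in the 4 double KO libraries. Egfr was the 1 gene of this list called in the miR-290 KO iPSC, where 1.57% of all genes were called. It stood there at 4.96 ± 2.86 CPM (log2 difference 2.72, SE 0.56, limma adjusted p = 0.034), and 10 of 27 alternatives did not call it.

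Ehd2 had 21.1 and 28.4 CPM in colony 1 of the double KO and 49.3 and 48.3 in colony 2 (mean 36.8 ± 17.0). In the miR-290 KO iPSC it had 4.11 and 4.69 CPM in colony 1 and 18.8 and 12.3 in colony 2. These miR-290 KO colonies, at 4.40 and 15.6 CPM, differed by 1.76 on the log2 scale, a gap as large as that of 3.14% of all genes. No library overlapped between the miR-290 KO and the double KO. WT iPSC had 0.323, 0.421 and 0.481 CPM. The log2 difference from WT was 5.99 (SE 0.71, rank 82) in the double KO and 3.93 (SE 0.71, rank 10) in the miR-290 KO, 65.6% of the double KO's. The same share was 36.8% for Ly6a, 38.6% for Cd44, 52.1% for Msln and 35.4% for Cd109.

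The matrix held 13 of 22 other genes listed for caveolae and EHD proteins, and the caveolin genes Cav1, Cav2 and Cav3 were not among them. Of these 13, 3 were higher in the double KO, 1 was lower and 9 were not called. Over all genes 27.4% were higher and 21.5% lower. The list had a median log2 difference of 0.02, against 0.16 over all genes. Of 3 cavins, the coat proteins of caveolae, 2 rose: Ptrf (cavin-1) from 27.3 ± 3.57 to 1031 ± 175 CPM (log2 difference 5.23, SE 0.31, limma adjusted p = 6.31e-08) and Prkcdbp (cavin-3) from 3.04 ± 1.70 to 220 ± 46.3 CPM (log2 difference 6.24, SE 0.51). Murc (cavin-4), which is known from muscle, was at 0.951 ± 0.715 CPM in WT iPSC and 0.469 ± 0.0122 in the double KO and was not called (limma adjusted p = 0.15). Ehbp1, a partner of EHD proteins, rose by 1.03 (SE 0.35), a call that 5 of 27 alternatives did not make. Pacsin1, a membrane-bending protein best known in neurons, fell by 4.49 (SE 0.67), and Pacsin2 and Pacsin3 were not called. In double KO and WT iPSC, Ehd1 had 259 and 202 CPM, Ehd3 had 5.86 and 4.59, and Ehd4 had 38.4 and 44.8, and none of the 3 was called. Ptrf was at 37.3 ± 1.73 CPM in the miR-290 KO iPSC and was not called there. In the ESC it was higher without miR-290 (24.1 ± 0.373 CPM) than without miR-302 (6.71 ± 3.80 CPM, log2 difference 1.95, SE 0.34, adjusted p = 0.034), and 14 of 27 alternatives did not call it.

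**Figure D2:**
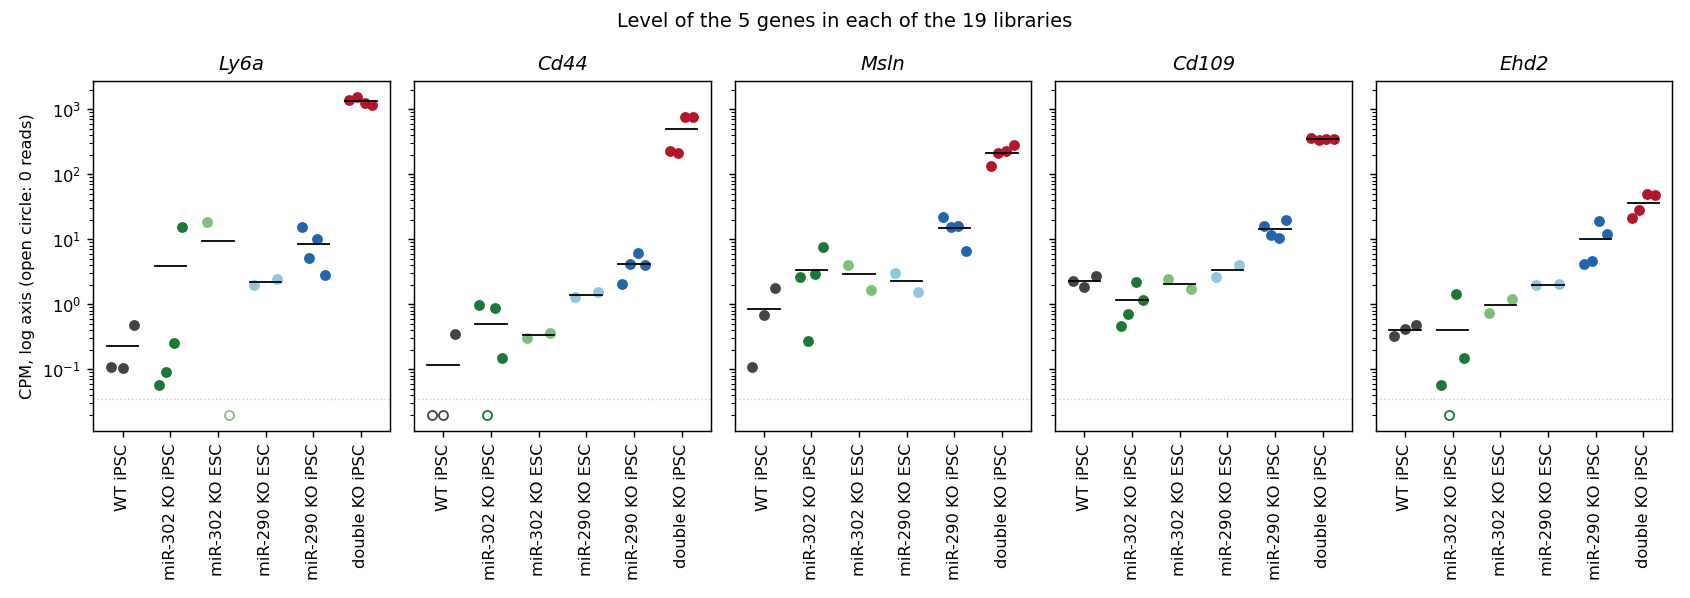
Each point is 1 library, the y axis is CPM on a log axis, open circles are libraries with 0 reads, and black lines are group means over colonies or libraries. The 4 double KO points stand above all others in each panel, and in the Ly6a panel 1 miR-302 KO iPSC library and 1 miR-302 KO ESC library sit with the miR-290 KO iPSC.

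Ordered by mean CPM, the double KO came first for all 5 genes and its samples overlapped with no other group. The choice used the double KO, miR-290 KO and WT iPSC libraries, so this order is a description. The share of all genes with such gaps, here or in the paragraphs on each gene, was not counted. The miR-290 KO iPSC came next for Cd44, Msln, Cd109 and Ehd2. For Cd44, Cd109 and Ehd2 its libraries did not overlap with the following group. For Msln the colony means did not overlap with those of the miR-302 KO iPSC, but single libraries did (6.68 CPM at the lowest against 7.50 at the highest). For Ly6a the miR-302 KO ESC came next (9.28 ± 13.1 CPM) by its 1 high library, overlapping with the miR-290 KO iPSC (8.43 ± 2.68). For Msln the 4 lower groups, from 3.34 ± 2.67 CPM in the miR-302 KO iPSC to 0.860 ± 0.853 in WT iPSC, overlapped each with the next. For Ehd2 the miR-302 KO iPSC (0.408 ± 0.536) and WT iPSC (0.409 ± 0.0798) overlapped. In every one of the 5 genes the miR-290 KO iPSC mean was above that of the miR-290 KO ESC, by log2 differences of 1.59 (SE 1.70) for Ly6a, 1.36 (SE 0.84) for Cd44, 2.60 (SE 0.89) for Msln, 2.05 (SE 0.47) for Cd109 and 1.96 (SE 0.78) for Ehd2. The choice of genes used the iPSC side of that contrast and so favoured a higher iPSC mean, and the contrast has no test. The share of all genes higher in the miR-290 KO iPSC than in the miR-290 KO ESC was not counted.

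The choice described the rises in the miR-290 KO as small. They were small beside those of the double KO but not beside other genes: in the miR-290 KO against WT iPSC, Ly6a ranked 4, Msln 5, Cd44 7, Ehd2 10 and Cd109 100 of 12778. In that comparison 1.21% of genes were called higher and 0.360% lower (1.57% in all). Of the called genes 77.1% were higher, and 54.5% with libraries scaled to a common median. Against WT, 82 genes had a double KO rise at least as large as that of Ehd2, and 28 of them also had a miR-290 KO rise at least as large as that of Cd109. The authors' deposited tables listed all 5 genes in both comparisons, and none of the 5 in the table for the miR-302 KO. Those tables held 8672 genes for the double KO, 1429 for the miR-290 KO and 43 for the miR-302 KO. The choice of genes used the first 2 comparisons, so the listing is a description. In the double KO the authors' log2 fold changes were 12.3 for Ly6a, 11.9 for Cd44, 7.73 for Msln, 6.97 for Cd109 and 6.20 for Ehd2.

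**Figure D3:**
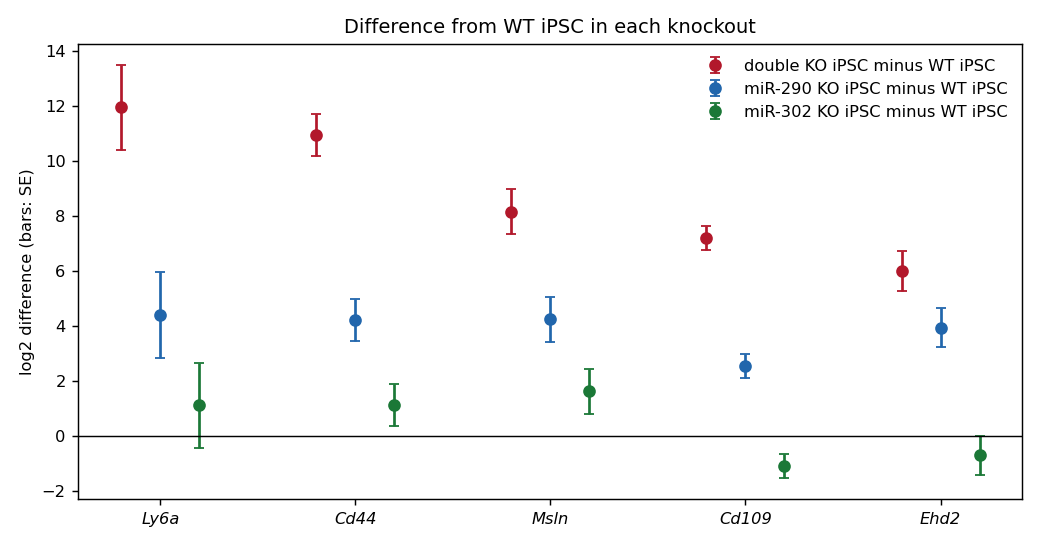
Points are log2 differences from WT iPSC (y axis) for each gene and knockout, with bars for the SE of the fit over 13 samples. The miR-290 KO points lie between 2.54 and 4.40 and the double KO points between 5.99 and 11.94, while the miR-302 KO points lie on both sides of 0.

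Loss of miR-302 alone went with differences of both signs. The choice used the WT side of this contrast, so the values have no test. In miR-302 KO against WT iPSC the log2 difference was 1.63 for Msln (SE 0.81), 1.12 for Cd44 (SE 0.77) and 1.11 for Ly6a (SE 1.55), and it was -0.70 for Ehd2 (SE 0.71) and -1.10 for Cd109 (SE 0.43). The values depend on which libraries stand for the group: without the 2 libraries labelled colony 2, Cd109 was at -1.75 and Ly6a changed sign (-0.65). Without colony 2 library 2 alone Ly6a was at -0.21.

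The ESC gave no call for the 5 genes. In miR-290 KO against miR-302 KO ESC, 0 of 5 were called by limma, against 0.587% of all genes. At an unadjusted 0.05, 0 of 5 passed, against 12.8% of all genes, and voom on the recovered reads called 0. The largest difference was 1.69 for Cd44 (95% interval -0.12 to 3.51, limma adjusted p = 0.43). It had 1.28 and 1.53 CPM without miR-290 and 0.305 and 0.366 without miR-302. The 2 groups did not overlap, but the share of all genes for which this holds was not counted. Ehd2 was at 0.99 (-0.71 to 2.68), Cd109 at 0.63 (-0.39 to 1.66), Ly6a at 0.54 (-3.14 to 4.22) and Msln at -0.27 (-2.20 to 1.66). In miR-302 KO iPSC against miR-302 KO ESC, limma called 0 of 5 and 0% of all genes. At an unadjusted 0.05, 0 of 5 passed, against 10.5% of all genes, and voom called 0. The differences ran from -1.69 for Ehd2 (-3.39 to 0.0037) to -0.04 for Cd44 (-1.86 to 1.78). Each miR-302 KO iPSC colony averaged libraries unlike each other (r = -0.18 and r = -0.19), 1 of them most like a miR-302 KO ESC library. Such averaging can shrink a difference and widen the spread, so the lack of calls in this comparison decides nothing about the 5 genes.

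Of the 121 genes of all lists, 45 were higher in the double KO and 30 lower, and 75 of 121 were called where 49.0% of all genes were. In the miR-290 KO iPSC 4 of 121 were higher (Egfr, Nt5e, Ncam1 and Bst2) and 0 lower, where 1.57% of all genes were called. At an unadjusted 0.05 these counts were 24 and 10, against 16.7% of all genes in both directions, and voom called 5. In the miR-302 KO iPSC against WT limma called 0 of 121 and 0.0313% of all genes (4 of 12778). There 3 were higher and 8 lower at an unadjusted 0.05, against 15.1% of all genes, and voom called 0. In the ESC comparison 4 were higher without miR-290 (Krt7, Krt8, Ptrf and Prom1) and 0 lower, where 0.587% of all genes were called. At an unadjusted 0.05 these counts were 21 and 3, against 12.8% of all genes, and voom called 0.

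**Figure D4:**
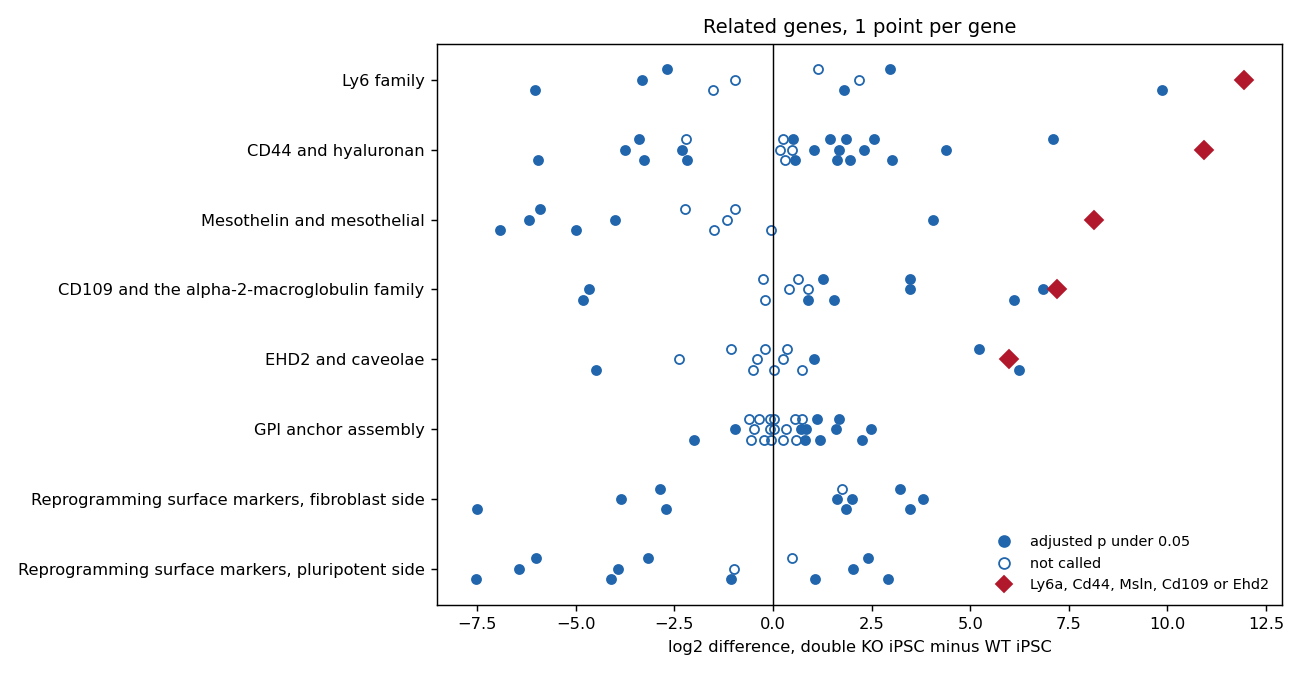
Each circle is a gene of 1 of 8 lists (rows) at its log2 difference between double KO and WT iPSC (x axis), filled where the adjusted p was under 0.05, and diamonds are the 5 chosen genes. The caveola and GPI assembly lists hold mostly open circles near 0, while the Ly6, CD44 and CD109 lists spread to both sides.

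GPI anchors hold Ly6a, Msln and Cd109 to the membrane. Of 26 genes that build or trim the anchor, 9 were higher in the double KO, 2 lower and 15 not called, where 27.4% of all genes were higher and 21.5% lower. Their median log2 difference was 0.29, against 0.16 over all genes. Without colony 1 of the double KO only 3 were higher. Pigt, a subunit of the enzyme that attaches the anchor, rose from 12.8 ± 4.64 to 71.9 ± 9.60 CPM (log2 difference 2.48, SE 0.57, limma adjusted p = 0.0032). Dpm3, which tethers the mannose donor's synthase, rose by 2.26 (SE 0.29), and Pgap3, which remodels the anchor's lipid, by 1.67 (SE 0.38, not called without colony 2 of the double KO). Pgap1, which removes an acyl chain from the anchor, fell by 2.01 (SE 0.18).

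Of other surface proteins used to stage reprogramming, 6 of 11 listed on the fibroblast side were higher in the double KO and 4 lower. For this list and the pluripotent side below, the shares over all genes were 27.4% higher and 21.5% lower. Thy1, a classic fibroblast marker, had a log2 difference of -3.86 (SE 0.79). Icam1, a cell adhesion molecule counted among the 4, was at -7.51 (SE 0.56), near Pecam1 of the pluripotent side, which fell by 7.54. The place of Icam1 on the fibroblast list was not checked, so its fall is not read as loss of a fibroblast trait. Nt5e (CD73) rose from 3.29 ± 0.496 to 47.8 ± 4.83 CPM (log2 difference 3.81, SE 0.41). Nt5e and Ncam1 also rose in the miR-290 KO iPSC, by 2.23 (SE 0.41, adjusted p = 0.023) and 1.90 (SE 0.28, adjusted p = 0.0077), and 6 of 27 alternatives did not call Nt5e. On the pluripotent side 7 of 13 were lower and 4 higher. Pecam1 fell by 7.54 (SE 0.32), Alpl by 6.43, Tdgf1 by 6.01 and Epcam by 4.12, whereas Prom1 rose by 2.90 and Cd24a by 2.02 on the log2 scale. In the ESC Prom1 was at 40.4 ± 12.1 CPM without miR-290 and 5.96 ± 0.225 without miR-302 (log2 difference 2.70, SE 0.41, adjusted p = 0.016), and 8 of 27 alternatives did not call it.

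The iPSC label of the double KO was checked against pluripotency markers. All 12 were called lower in it than in WT iPSC, where 21.5% of all genes were called lower. The summed level of the 11 with recovered reads was 205 to 331 CPM in its libraries against 3055 to 3759 in WT. Nanog, for example, stood at 2.38 CPM against 684. In the single KO iPSC and the ESC the sum was 2933 to 4529 CPM. The part that this shift has in the rises of the 5 genes was not tested, and in bulk RNA more cells of a type and more RNA per cell cannot be told apart.

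Markers of other cell types moved in both directions in the double KO. The counts called are read against the 27.4% of all genes that were higher and the 21.5% that were lower. Of 18 fibroblast markers 8 were in the matrix, and limma called 0 of them higher and 4 lower. Their summed level, mostly Fn1, was 321 to 1041 CPM in the double KO and 530 to 685 in WT. Of 10 mesothelial markers 5 were in the matrix and 2 were lower, with a sum of 7.01 to 280 CPM against 133 to 205, and Calb2 was at 0 reads. Of 10 trophoblast markers 8 were in the matrix and 5 were lower (14.8 to 69.9 CPM against 86.7 to 182). Of 12 blood markers 5 were in the matrix, 2 higher and 2 lower, with a sum of 12.2 to 26.2 CPM against 3.27 to 8.11. Runx1, a blood transcription factor, stood at 18.6 CPM against 0.938, and Cd3e had 0 reads. Of 8 endothelial markers 5 were in the matrix, 3 higher and 1 lower, with a sum of 50.6 to 97.3 CPM against 6.32 to 8.19. The VEGF receptor Flt1 was at 38.9 CPM against 1.71, while Tie1 had 0 reads. Of 12 markers of extraembryonic endoderm 5 were in the matrix, 1 higher and 2 lower, with a sum of 2342 to 4942 CPM against 522 to 682. Sparc made up most of it, at 3365 CPM against 540, and Gata4 had 0 reads. The part of these cell types in the rises was not tested.

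Genes whose profile over the 13 samples was most like that of a member were named by Pearson's r of the log2 values, among genes whose highest group mean was at least that of the member divided by 10. For Ly6a they were Nfix (r = 0.98), Top2b, Arhgdib, H1f0 and Nfia (r = 0.97 each). For Cd44 they were Etv6, Reep3, Fstl1, Rbm3 and Fam126a (r = 0.98 each), with Fstl1, a secreted glycoprotein, at 3999 CPM in the double KO and 191 in WT. For Msln they were Snx24 (r = 0.96), Blvra, Ssh2, Ptms and Gbas (r = 0.95 each). For Cd109 they were 2310022B05Rik and Rab31 (r = 0.99 each), Ank2, Col4a1 and Phlda1 (r = 0.98 each). For Ehd2 they were B2m, the light chain of MHC class I (r = 0.97, 481 CPM in the double KO and 42.8 in WT), Rbm3, Ammecr1l, 9330159F19Rik and D230030E09Rik (r = 0.96 to 0.97). Among the members themselves r ran from 0.84 (Ly6a and Ehd2) to 0.96 (Cd44 and Cd109) over the 13 samples, and from 0.60 (Ly6a and Ehd2) to 0.91 (Cd109 and Ehd2) over the 11 samples without the double KO. These are descriptions over samples that share libraries and the choice of genes.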

How the data were processed

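The members and gene lists were chosen with earlier results of these data known. The submitters' processing notes name mm10, Trim Galore 0.66, STAR, Salmon 1.4.0, FastQC 0.11.9, MultiQC, limma and DESeq2 1.34.0, without roles. The authors' deposited matrix holds log2 values for 12778 genes, read from the values as log2 CPM plus a small prior, shifted by 1 constant per gene. Undoing this gave whole reads for 12238 genes (99.7% of their values within 0.02 of a read), from which CPM were computed; 6 columns of other samples were not used. In the double KO the values of Ly6a were not whole within that tolerance. The authors' deposited comparison tables hold mean normalized counts (a signal, used as a check), log2 fold changes, p-values and adjusted p-values.

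Log2 values were averaged over the libraries of each colony, which left 13 samples from 6 groups in a single fit of limma 3.58.1 (R 4.3.3) with a trend in the variance and 7 residual degrees of freedom. Calls needed an adjusted p (Benjamini-Hochberg, over the whole matrix) below 0.05. A log2 difference is on the scale of CPM plus the prior (0.141 CPM on average) and understates the change of low genes. The miR-302 KO to WT iPSC difference of the members was planned as a test and is given as a description, since their choice used the WT libraries. The fit was tested on simulated data. Named genes were the members; in each list the 4 called genes with the largest double KO difference; list genes called in the miR-302 KO iPSC or between ESC; the EHD and Ly6 genes; and the 5 genes most like each member. Others named in a list were picked after their values were seen. Counts of lists leave out the members. PCR reads have no molecular identifiers, so limits from 0 reads cover counting error only. Alternatives were each library as a sample, the replicate number as a block, other scaling, filter, pseudocount, weights and spread estimates, voom on recovered reads, and leaving out samples or single libraries. The 5 that leave out single libraries of the miR-302 KO or miR-290 KO iPSC were chosen after seeing the data.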

Additional observations from a re-analysis of the deposited data

Results flagged for a closer look

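The 5 genes and the share of reads taken by the 20 most abundant genes were examined for a library far from the other 3 of its group, in 18 sets of 4 libraries, where chance marks about 1 in 20. For Ly6a in the miR-302 KO iPSC, library 2 of colony 2 had 15.3 CPM, and its gap to the next library on the log2 scale was 0.841 of the whole range. The 20 most abundant genes and their share were taken among the 12238 genes with recovered reads. Library 2 of colony 1 among the miR-302 KO iPSC gave them 17.1% of those reads (95% Wilson interval 17.11 to 17.15), with a gap of 0.939 of the range.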

How the results depend on the processing

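Over 27 alternatives the log2 difference between double KO and WT iPSC stayed at 10.09 to 12.69 for Ly6a, 8.56 to 12.77 for Cd44, 6.91 to 8.84 for Msln, 6.75 to 7.32 for Cd109 and 4.66 to 6.49 for Ehd2, and 4495 to 6904 genes were called (4495 to 6716 when 1 sample or library was left out). Genes called in the miR-290 KO iPSC against WT (201) became 409 with each library as a sample, 370 on log2(CPM + 1), 337 with voom, 386 with sample weights, and 2 to 339 when 1 sample or library was left out, with the 2 without colony 2 of the miR-290 KO. In the miR-302 KO iPSC against WT (4) they became 20 with each library as a sample, 7 with robust variances and 3 to 1273 on leaving out, the most without colony 2 of the miR-302 KO. There 0 to 1 of the 5 genes passed, which is no test since their choice used the WT libraries. Between ESC (75) they became 9 with each library as a sample, 1 with the replicate number as a block, 11 with voom, 0 with only these groups and 4 to 357 on leaving out, the most without library 1 of the miR-302 KO ESC. Between miR-302 KO iPSC and ESC (0) they became 1 with other scaling, 1 with the filter, 1 with robust variances and 0 to 955 on leaving out, the most without colony 2. The replicate block gave 5336 genes for the double KO, 149 for the miR-290 KO, 3 for the miR-302 KO and 0 between miR-302 KO iPSC and ESC. Same-numbered samples of 2 groups had deviations that correlated at r = -0.33 to 0.45 over 7877 genes in the 15 pairs of groups (-0.07 between the ESC groups), over 0.1 at every number in 4 of them, and were taken to share only a number. In WT iPSC, Ly6a and Cd44 had 7 reads or fewer per library, which limits the precision there. Some differences changed sign. Between ESC, Ly6a was at -0.46 on log2(CPM + 1) and at -2.99 to 4.06 on leaving out, and Msln at -0.88 to 0.34. Between miR-302 KO iPSC and ESC, Ly6a was at 0.94 with voom and -4.68 to 2.37 on leaving out, Cd44 at 0.085 with other scaling, 0.10 on log2(CPM + 1), 0.60 with voom and -0.79 to 0.70 on leaving out, and Msln at 0.35 with voom and -1.38 to 0.81 on leaving out. In the miR-302 KO iPSC against WT, Ly6a was at -0.65 to 2.88 and Ehd2 at -1.70 to 0.30 on leaving out. The cause was not tested.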
